A study of Mus musculus with 9 samples.

Results

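Hypoxic glycolytic tumour cells of 168FARN mammary tumours, called hypoxia-high cells here, were selected on their measured levels, as the 15% of tumour cells with the highest summed UMIs (unique molecular identifiers, each standing for a captured transcript) of Slc2a1, Bnip3, Ndrg1 and Ero1l per 10000 UMIs of the cell. Tumour cells were cells with more than 500 and fewer than 7500 genes, under 15% mitochondrial UMIs and at least 1 UMI of Krt8 or of the H2BMc reporter, and with none of the leukocyte gene Ptprc or the endothelial gene Pecam1. Cells with 2 or more UMIs of at least 3 of Cdc20, Cenpa, Ccnb2, Ccnb1, Cdkn3 and Pttg1 were left out as mitotic. This gave 33853 tumour cells among 58645 cells past the limits on genes and mitochondrial UMIs and 89147 barcodes, and 5078 of the 33853 were hypoxia-high. The remaining 28775 are called other tumour cells.

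168FARN is a murine mammary tumour cell line, and every tumour grew in the mammary fat pad of a female Balb/c mouse that was a few weeks old when obtained. All 3 groups carried the H2BMc nuclear reporter, a histone H2B fused to mCherry. They were WT cells, Kmt2c KO cells and Kmt2d KO cells, with 3 libraries each. Kmt2c and Kmt2d encode histone methyltransferases of the COMPASS family. The KO cells came from transient transfection of a mixture of guides against exon 1 with Cas9 and repeated sorting, so that each KO was a sorted pool and not 1 clone. The WT, Kmt2c KO and Kmt2d KO libraries were complete tumour suspensions that had been digested, frozen and cleared of dead cells before 5' single-cell sequencing. The deposited table names each library by a letter that no label explains, and C was taken to mean Kmt2c KO, D Kmt2d KO and X WT, so that every value by genotype rests on this reading. Library numbers only name the libraries. Nothing in the labels ties them to animals, so that p-values measure the spread between these libraries.

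Cells short of oxygen stabilise the HIF transcription factors, because the prolyl hydroxylases that mark HIF alpha subunits for degradation by the VHL complex need oxygen. HIF target genes raise glucose uptake and glycolysis, divert pyruvate from the mitochondria to lactate, export acid, promote mitophagy and call in new vessels. Solid tumours commonly hold such cells far from vessels, and this programme is a common source of variation among the cells of one tumour. Of the genes that chose the cells, Slc2a1 encodes the glucose transporter GLUT1, Bnip3 a mitophagy receptor, Ndrg1 a stress-induced protein and Ero1l an endoplasmic reticulum oxidase that forms disulfide bonds.

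Kmt2c KO libraries 1, 2 and 3 held 1193, 1281 and 737 hypoxia-high cells, those of Kmt2d KO 463, 519 and 667, and those of WT 41, 130 and 47. Their summed UMIs lay between 690436 and 13897422 per library. Kmt2d KO library 3 stood apart in depth, because its hypoxia-high cells held a median of 1598 UMIs and 913 genes, while the medians of the other 8 libraries ran from 7528 to 17057 UMIs. Kmt2d KO library 2 stood apart in expression. The gene model Gm364, which the Kmt2c KO hypoxia-high cells held at 0.725, 0.576 and 0.945 CPM (UMIs of the gene per 1000000 UMIs of the summed cells), was at 0.197 CPM in that library, but at 42.6 and 48.4 CPM in libraries 1 and 3 of the same genotype. The WT libraries held 42.0, 43.1 and 46.4 CPM. The shares of hypoxia-high cells and the numbers of genes called between genotypes are therefore also given without these libraries. Of 84658 distinct barcode sequences, 4365 occurred in more than 1 library, 10 of them among hypoxia-high cells.

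The choice of cells fixed the levels of the 4 genes, which are given as a description with no test, as are the differences from other tumour cells. Hypoxia-high cells began at 5.83 UMIs of the 4 genes per 10000, with 455 cells less than 10% above this limit and 580 other tumour cells less than 10% below it, so that the limit divided a continuous range. The median score was 12.2 in hypoxia-high cells and 1.18 in other tumour cells. A hypoxia-high cell held a median of 12 UMIs of the 4 genes and at least 1, so that a shallow cell could pass the limit on 1 UMI. All 4 genes were detected in 48.2% of hypoxia-high cells and only 1 of them in 12.4%.

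Slc2a1 was at 480, 648 and 556 CPM in the hypoxia-high cells of the Kmt2c KO libraries, 259, 347 and 287 CPM in those of the Kmt2d KO libraries and 235, 339 and 546 CPM in those of the WT libraries. Other tumour cells held 35.5 to 50.5 CPM of Slc2a1. Bnip3 was at 746, 912 and 767 CPM in Kmt2c KO, 608, 666 and 539 CPM in Kmt2d KO and 673, 811 and 920 CPM in WT hypoxia-high cells. In each library both genes lay far above their level in other tumour cells, where Bnip3 was at 40.7 to 59.5 CPM. Ndrg1 ran from 486 to 834 CPM and Ero1l from 193 to 463 CPM over the 9 libraries. The median log2 ratio of hypoxia-high to other tumour cells over the 9 libraries, taken on CPM + 1 like all such ratios below, was 3.11 for Slc2a1, 3.79 for Bnip3, 3.56 for Ndrg1 and 3.70 for Ero1l.

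The hypoxic and glycolytic label was examined with genes that had no part in choosing the cells. Of a list of 47 further hypoxia genes, 34 reached 5 CPM in the median library of either cell set. Of these 34, 26 were higher in hypoxia-high cells in 9 of 9 libraries and 1 was lower in 9 of 9. Over all 10035 genes of at least 5 CPM, 5.69% were higher and 23.7% lower in 9 of 9 libraries. The median log2 ratio was 1.26 for the 34 genes and -0.15 for all 10035, and library scaling by TMM brought the latter to -0.05. The glycolysis list had 20 members, of which 15 reached 5 CPM, with 13 higher in 9 of 9 libraries, none lower and a median log2 ratio of 1.47. Markers of leukocytes and endothelium were scarce in hypoxia-high cells, while those of fibroblasts and mural cells were not. Cells with a UMI of Ptprc or Pecam1 had been left out, and no such limit was set for fibroblasts and mural cells. The scarcity of the first markers is therefore no test of the tumour label. The summed level of 5 neutrophil markers was 0 to 2.73 CPM over the 9 libraries, that of 5 lymphocyte markers 0 to 1.38 CPM, that of 5 endothelial markers 0 to 13.0 CPM and that of 7 macrophage markers 8.69 to 28.7 CPM. The summed level of 6 markers of fibroblasts and mural cells was 199 to 554 CPM in hypoxia-high and 264 to 592 CPM in other tumour cells, and Pdgfra and Pdgfrb of that list were detected in 43.1% and 21.3% of hypoxia-high and 48.8% and 31.5% of other tumour cells. Of 7 epithelial genes only Krt8 reached 5 CPM, while Krt18, Krt19, Krt7, Epcam, Cdh1 and Cldn4 did not. Krt8 and H2BMc chose the tumour cells, so their levels do not test the tumour label, which no other epithelial gene supported at this limit. Krt8 lay at 237 to 479 CPM in hypoxia-high and 251 to 573 CPM in other tumour cells, lower in 8 of 9 libraries, and H2BMc at 74.9 to 187 CPM against 46.4 to 65.9 CPM.

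**Figure D1:**
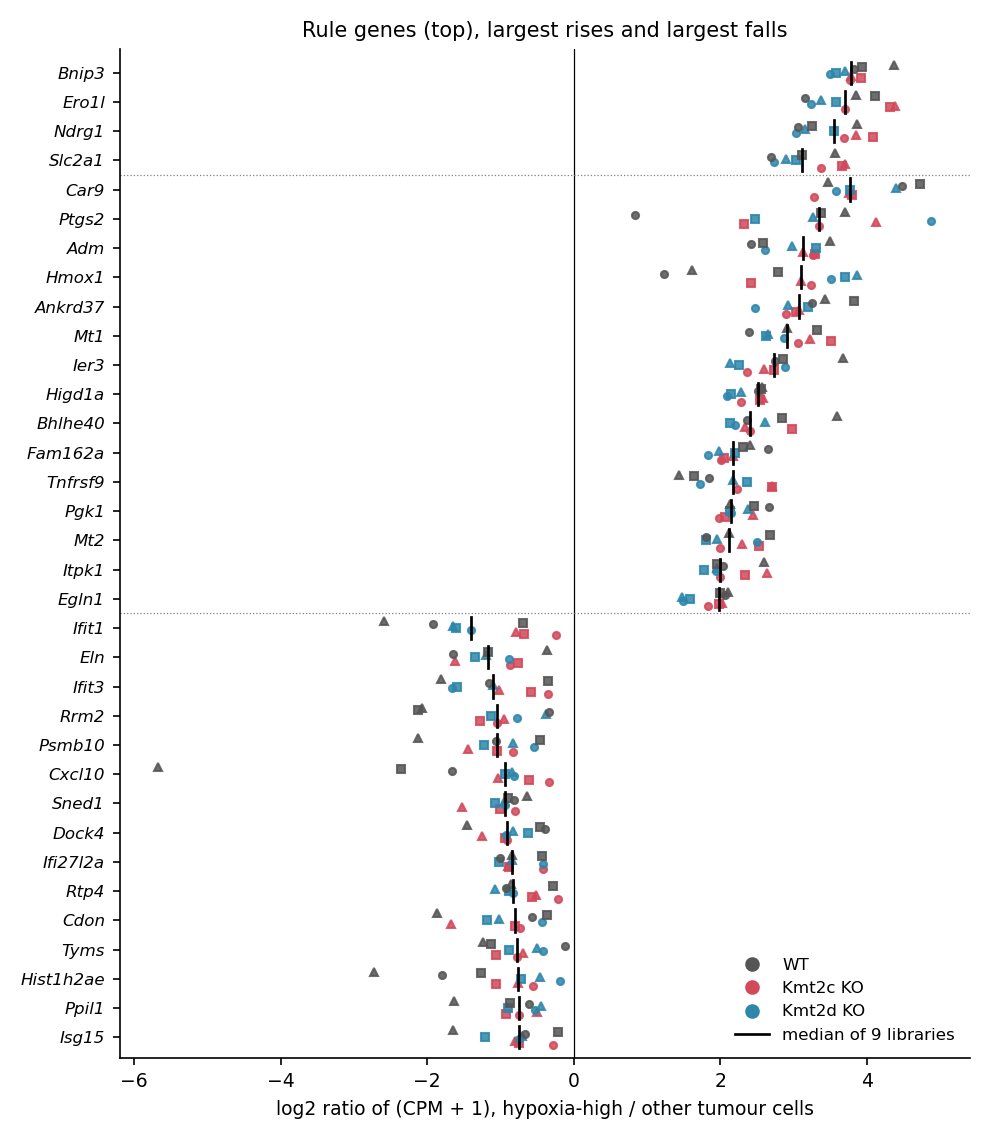
Log2 ratio of CPM + 1 between hypoxia-high and other tumour cells for the 4 rule genes (top), the 15 named genes with the largest rises and the 15 with the largest falls, 1 point per library coloured by genotype and a bar at the median of 9 libraries. All points of the rule genes and of the rises lay above 0 and all points of the falls below it, with medians of 3.77 for Car9 and -1.41 for Ifit1.

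Among the HIF subunits, Hif1a had a median log2 ratio of 0.38 and was at 103 to 162 CPM in hypoxia-high and 74.3 to 98.3 CPM in other tumour cells, higher in 9 of 9 libraries. Its partner Arnt had a median ratio of -0.07, and Epas1 and Hif3a, the other alpha subunits, did not reach 5 CPM. Of the oxygen sensors, Egln1 and Egln3, which encode prolyl hydroxylases that are themselves HIF targets, had ratios of 1.97 and 2.04. Egln2, the third prolyl hydroxylase, was lower in 9 of 9 libraries, with a ratio of -0.29 and medians of 63.4 against 76.4 CPM. Vhl had a ratio of 0.40, higher in 9 of 9 libraries, and the asparaginyl hydroxylase gene Hif1an one of -0.28, lower in 8 of 9.

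Car9 encodes the carbonic anhydrase that acidifies the outside of hypoxic cells, and had the largest median ratio, 3.77, among genes of at least 50 CPM outside the rule that had 1 sign in every library. It was at 108, 116 and 140 CPM in Kmt2c KO, 78.6, 148 and 79.5 CPM in Kmt2d KO and 109, 80.1 and 38.2 CPM in WT hypoxia-high cells, and the 2 cell sets did not overlap. Of the angiogenic ligands, Adm, which encodes adrenomedullin, was at 102 to 426 CPM against 15.9 to 41.5 CPM with a ratio of 3.12. Vegfa, the main vascular growth factor gene, had a smaller ratio of 1.22, with 44.9 to 106 CPM in hypoxia-high and 20.6 to 52.0 CPM in other tumour cells. Angptl4 was higher in 7 of 9 libraries and Pgf had a ratio of -0.07.

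Of the genes of mitochondrial adaptation, Pdk1, whose kinase shuts off pyruvate dehydrogenase, was at 25.2 to 52.1 CPM against 2.65 to 6.20 CPM. Higd1a, which encodes a hypoxia-induced inner membrane protein, had medians of 512 and 92.7 CPM, and the mitophagy receptor gene Bnip3l a ratio of 1.03. Fundc1 had a ratio of -0.03. Cox4i2 and Ndufa4l2, the hypoxic variants of respiratory chain subunits, did not reach 5 CPM. Among enzymes that modify collagen, P4ha1, P4ha2, Plod1 and Plod2 had ratios of 1.65, 1.80, 1.13 and 1.29, each higher in 9 of 9 libraries, and the crosslinking oxidases Lox and Loxl2 did not reach 5 CPM.

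The transcription and chromatin targets Bhlhe40, Mxi1, Kdm3a and Kdm4b had ratios of 2.4, 1.28, 0.89 and 1.03. Ankrd37, an established HIF target, was at 53.7 to 112 CPM against 6.25 to 8.87 CPM. Zfp395 had a ratio of 0.30 and was higher in 7 of 9 libraries. Among growth and stress targets, Hmox1, the haem oxygenase gene, showed the widest spread between libraries. It was at 153, 307 and 259 CPM in Kmt2c KO, 131, 137 and 137 CPM in Kmt2d KO and 29.0, 103 and 42.9 CPM in WT hypoxia-high cells, against 8.48 to 56.6 CPM in other tumour cells. Ddit4, an inhibitor of mTORC1, had a ratio of 1.13, and the cytokine gene Mif had medians of 4021 and 1069 CPM. Gbe1 and Gys1, for glycogen synthesis, had ratios of 1.37 and 1.81, Ak4 one of 1.24, and Pfkfb4 one of -0.20. Car12, Stc1, Stc2, Pfkfb3, Ppp1r3c, Rora and Igfbp3 did not reach 5 CPM, which completes the 13 genes of the list under that limit.

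Almost every measured step of glycolysis was higher in hypoxia-high cells. Hk2, the inducible hexokinase gene, had medians of 36.5 and 8.50 CPM, a ratio of 1.88, while Hk1 had one of 0.44. In upper glycolysis Gpi1, Pfkl, Pfkp and Aldoa had ratios of 1.4, 1.83, 0.98 and 1.53, and the muscle phosphofructokinase gene Pfkm one of -0.17. Tpi1, Gapdh, Pgk1, Pgam1, Eno1 and Pkm, which carry the pathway from triose phosphate to pyruvate, had ratios of 1.47, 1.35, 2.14, 1.71, 1.55 and 1.11. Pgk1 was at 1196 to 1718 CPM against 271 to 359 CPM. Ldha, which turns pyruvate to lactate, was at 2187 to 3005 CPM against 586 to 808 CPM with a ratio of 1.90. The lactate exporter gene Slc16a1 had a ratio of -0.09. Slc16a3, the hypoxia-induced lactate exporter, and Slc2a3, Aldoc, Eno2 and Ldhb did not reach 5 CPM. The summed glycolysis list made up 14680 to 18771 CPM in hypoxia-high and 5163 to 6275 CPM in other tumour cells.

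Promoter windows of 5 of these genes are shown because HIF binds sites that hold the letters ACGTG or GCGTG. Slc2a1, Bnip3 and Ero1l chose the cells, so their rise was fixed by the rule. Car9 and Pgk1 had no part in the rule and were higher in 9 of 9 libraries. The sequences are the 250 bases before the annotated start in RefSeq (GRCm38.p6), printed 5' to 3' on the strand of the gene and ending at the base next to the annotated gene, with each ACGTG or GCGTG match on either strand in capitals, so that matches on the opposite strand read CACGT or CACGC. The windows are chr4:119108495-119108744 (plus strand) for Slc2a1, chr7:138909507-138909756 (minus) for Bnip3, chr14:45318573-45318822 (minus) for Ero1l, chr4:43506776-43507025 (plus) for Car9 and chrX:106186850-106187099 (plus) for Pgk1.
Slc2a1: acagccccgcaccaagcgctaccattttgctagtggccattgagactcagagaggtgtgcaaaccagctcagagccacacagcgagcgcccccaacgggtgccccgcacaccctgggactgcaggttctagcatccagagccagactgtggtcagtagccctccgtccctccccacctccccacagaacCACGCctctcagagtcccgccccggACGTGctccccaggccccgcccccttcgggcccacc
Bnip3: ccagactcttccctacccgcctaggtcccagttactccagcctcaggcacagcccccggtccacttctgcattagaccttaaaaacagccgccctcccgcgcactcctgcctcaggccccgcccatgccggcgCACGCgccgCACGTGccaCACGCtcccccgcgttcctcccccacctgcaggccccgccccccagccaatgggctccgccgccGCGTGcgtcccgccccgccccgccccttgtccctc
Ero1l: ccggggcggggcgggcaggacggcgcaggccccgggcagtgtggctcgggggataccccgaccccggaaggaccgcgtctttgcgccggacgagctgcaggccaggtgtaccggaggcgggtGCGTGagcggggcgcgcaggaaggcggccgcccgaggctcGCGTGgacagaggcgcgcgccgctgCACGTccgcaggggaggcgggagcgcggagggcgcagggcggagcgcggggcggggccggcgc
Car9: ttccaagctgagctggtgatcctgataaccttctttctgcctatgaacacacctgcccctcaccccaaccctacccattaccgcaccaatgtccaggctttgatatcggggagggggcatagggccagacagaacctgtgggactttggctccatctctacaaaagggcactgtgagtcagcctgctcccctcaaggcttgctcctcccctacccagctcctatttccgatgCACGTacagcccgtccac
Pgk1: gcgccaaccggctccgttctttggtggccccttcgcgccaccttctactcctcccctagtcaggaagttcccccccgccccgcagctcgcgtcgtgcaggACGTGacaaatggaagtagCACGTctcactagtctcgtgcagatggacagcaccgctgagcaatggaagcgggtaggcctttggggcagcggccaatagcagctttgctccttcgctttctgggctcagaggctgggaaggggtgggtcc
They held 1, 2, 1, 1 and 2 matches of ACGTG in that order, and 1, 3, 2, 0 and 0 matches of GCGTG. The letters CACGTG hold ACGTG on both strands and count as 2. The matches nearest to the start of Slc2a1, Bnip3, Ero1l, Car9 and Pgk1 lay 36, 35, 63, 18 and 131 bases before it. A match describes these letters only and is no evidence of binding. ACGTG occurred in 16.6% of 32841 windows of the same length in the RefSeq table, and in 22.5% of the 10222 windows of genes of at least 5 CPM. It occurred in 38.1% of the 63 windows that 42 of the hypoxia and glycolysis genes measured here had in the table, and in 10.0% of the 20 windows of 17 interferon-response genes. No window of Ndrg1 was used. GCGTG occurred in 28.2%, 46.6%, 49.2% and 20.0% of these sets in the same order.

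The stress response that follows misfolded protein and amino acid shortage was split by branch. Of 9 measured genes of the ATF4 branch, 5 were higher in hypoxia-high cells in 9 of 9 libraries, and the median ratio of the branch was 0.74. Over both branches 5 of 19 genes were higher in 9 of 9 libraries, against 5.69% of all genes, and 8 of 19 in all 8 libraries without WT library 1, against 6.70%. Without any other single library the count was 5 or 6. Atf4 itself had medians of 126 and 75.7 CPM, and its targets Ddit3, Trib3 and Chac1 had ratios of 1.18, 1.79 and 1.52. Asns, for asparagine synthesis, had a ratio of 0.36. Slc7a11 did not reach 5 CPM. Of the 10 genes for chaperones of the endoplasmic reticulum and the XBP1 branch, none was higher in 9 of 9 libraries and 1 was lower, Calr with a ratio of -0.23, and the chaperone gene Hspa5 had a ratio of 0.17.

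Most nuclear genes of oxidative metabolism were lower in hypoxia-high cells, by smaller ratios. In each library 5919 to 7408 of the 10035 genes of at least 5 CPM were lower in hypoxia-high cells. All 42 nuclear genes of the respiratory chain reached 5 CPM, and 34 of them were lower in hypoxia-high cells in 9 of 9 libraries, with none higher, against 23.7% of all genes lower. The counts were 15 of 17 for complex I, 4 of 6 for complex III, 8 of 10 for complex IV and 7 of 9 for complex V. The list had a median ratio of -0.22 and all genes one of -0.15, which became -0.12 and -0.05 with TMM scaling. The 23.7% covers genes of any level from 5 CPM, and no share was taken for genes of matched level. The part of gene level in these counts, and in that of the TCA cycle below, was not tested. The summed level of the list was 12880 to 15157 CPM against 14449 to 17872 CPM. Ndufa5 of complex I had a ratio of -0.56 and Cox8a of complex IV one of -0.14. Of 13 enzymes of the TCA cycle, 8 were lower in 9 of 9 libraries, against the same 23.7%, with a median ratio of -0.19 that became -0.10 with TMM scaling. The 13 mRNAs of the mitochondrial genome had a median ratio of -0.11, slightly above the -0.15 of all genes, and 2 of them (15.4%), mt-Nd1 and mt-Nd3, were lower in 9 of 9 libraries, a smaller share than the 23.7% of all genes. Without Kmt2d KO library 3, where the median share of mitochondrial UMIs in hypoxia-high cells was 7.17%, 6 of the 13 were lower in all 8 libraries, against 25.6% of all genes.

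Outside metabolism, the list of metal and oxidant response genes was led by the metallothioneins. Mt1, which encodes a protein that binds metal ions, was at 3486, 5054 and 4992 CPM in Kmt2c KO, 2180, 2743 and 1546 CPM in Kmt2d KO and 1657, 2839 and 2778 CPM in WT hypoxia-high cells, against 245 to 534 CPM in other tumour cells. Mt2 had a ratio of 2.12. These were the 2 of 5 measured members higher in 9 of 9 libraries, against 5.69% of all genes, and Nqo1 did not reach 5 CPM. Other genes with large ratios were Ptgs2, the inducible cyclooxygenase gene, with 3.35, Ier3, an immediate early gene, with 2.73, and Tnfrsf9, which encodes the receptor 4-1BB, with 2.17. Ptgs2 varied from 5.79 CPM in WT library 1 to 238 CPM in Kmt2c KO library 3. The chemokine gene Cxcl1 had a ratio of 1.52 and was at 89.8 to 411 CPM against 17.2 to 173 CPM.

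Of 21 S phase genes, 7 (33.3%) were lower in hypoxia-high cells in 9 of 9 libraries, against 23.7% of all genes. Without WT library 1, 20 of the 21 were lower in all 8 libraries, against 32.5% of all genes. Without any other single library the count stayed at 7. WT library 1 was the only library with a list median above 0 (0.15), with 14 of the 21 genes higher. That library held 41 hypoxia-high cells and 1073 CPM of the list against 983 CPM in its other tumour cells. The median ratio of the list was -0.57. Rrm2, a subunit of ribonucleotide reductase, had medians of 47.0 and 96.1 CPM. Of 11 genes for cholesterol synthesis and uptake 5 were lower in 9 of 9 libraries, among them Insig1 with -0.62, and 9 in all 8 without WT library 1, against 23.7% and 32.5% of all genes. Without any other single library the cholesterol count stayed at 5. Among matrix genes Vim had medians of 9343 and 7127 CPM, higher in 9 of 9 libraries, while the elastin gene Eln, with 105 and 235 CPM, was lower in 9 of 9. Vim and Fn1 were the 2 of 11 measured matrix list members higher in 9 of 9, against 5.69% of all genes, and Col1a2 and Postn did not reach 5 CPM. The median ratio of the 11 was -0.15, with members from -0.57 to 0.33, while the summed level of the list was higher in 9 of 9 libraries.

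Interferon-response genes were lower in hypoxia-high than in other tumour cells of the same library. Of a list of 26 genes, 25 were in the files, Rsad2 did not reach 5 CPM, and 17 of the remaining 24 were lower in 9 of 9 libraries with none higher and a median ratio of -0.73, against 23.7% of all genes lower in 9 of 9. Ifit1, which encodes a protein that binds foreign RNA, was at 93.8, 111 and 116 CPM in Kmt2c KO, 12.7, 47.0 and 10.8 CPM in Kmt2d KO and 7.24, 11.4 and 9.27 CPM in WT hypoxia-high cells. Other tumour cells held 111, 178 and 201 CPM, 35.4, 145 and 35.8 CPM and 30.2, 19.1 and 60.9 CPM of Ifit1 in the same order. Each library thus held less Ifit1 in its hypoxia-high cells, although Kmt2c KO hypoxia-high cells held more than WT cells of either set. The chemokine gene Cxcl10 had a ratio of -0.94 with a range of -5.67 to -0.34. In the pathway that loads MHC class I, 6 of 12 genes were lower in 9 of 9 libraries, against the same 23.7%, with a median ratio of -0.32. The summed level of the 12 genes did not follow 1 direction. It was higher in hypoxia-high cells in 4 of 9 libraries, with a median log2 ratio of -0.13 (range -0.31 to 0.08). The immunoproteasome gene Psmb10 had a ratio of -1.04 and B2m, the light chain of MHC class I, one of -0.13. Of 10 measured genes of invasion and checkpoints Plaur, for the urokinase receptor, and Cxcl1 were higher in 9 of 9 libraries, against 5.69% of all genes, and none was lower, and Mmp13 did not reach 5 CPM. Cd274, which encodes PD-L1, had a ratio of -0.55 and was lower in 8 of 9 libraries. Without the shallow Kmt2d KO library 3, the list medians were 1.3 for hypoxia, 1.48 for glycolysis, -0.70 for interferon response and -0.22 for the respiratory chain.

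**Figure D2:**
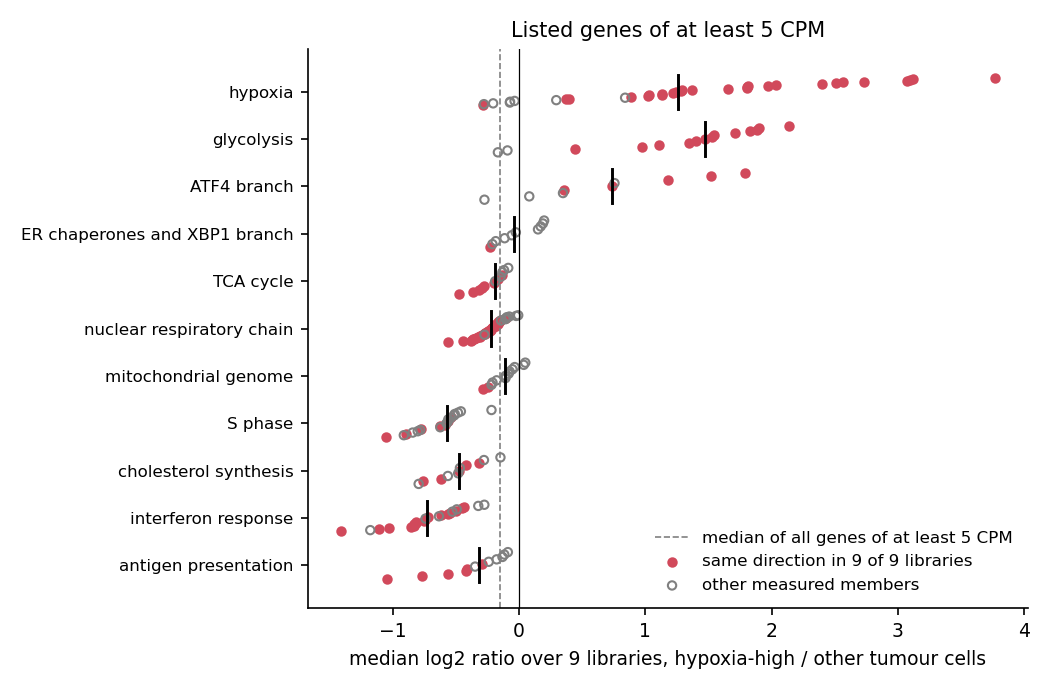
Median log2 ratio of CPM + 1 between hypoxia-high and other tumour cells over 9 libraries, 1 point per measured gene of each list. Hypoxia and glycolysis genes lay mostly above 0 with list medians of 1.26 and 1.47, interferon-response and S phase genes below it with -0.73 and -0.57, and respiratory chain genes close below it with -0.22.

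Because the limit divided a continuous range, tumour cells were also binned by the score of the 4 genes and the lists summed within each bin and library. From cells with a score of 0 through the bins above 0, 2.5, 5, 10 and 20, the glycolysis list was higher in each bin than in the one before, with median levels over the 9 libraries of 4300, 5503, 6883, 10506, 15620 and 21945 CPM. Ldha likewise went from 494 CPM at a score of 0 to 3465 CPM above 20. Vegfa was at 24.3 to 33.1 CPM in the lowest 3 bins and at 114 CPM in the highest. The respiratory chain sum did not follow 1 direction, with 14880 CPM at a score of 0, 17368 CPM in the first bin above 0 and then less in each bin down to 12677 CPM above 20. The S phase sum was likewise low at both ends, with 734 CPM at a score of 0, between 1009 and 1349 CPM in the 4 bins from 0 to 20 and 360 CPM above 20. The interferon-response sum was 4946 CPM at a score of 0, between 4111 and 4449 CPM in the 4 bins above that, and 2913 CPM above 20. WT library 1 had 9 cells in the highest bin. A score of 0 means that no UMI of the 4 genes was caught, which also depends on depth. The bin of score 0 held 3348 of the 7620 tumour cells of the shallow Kmt2d KO library 3. Its median sum of mitochondrial mRNAs was 51092.9 CPM, against 34835.5 CPM in the next bin. The part of depth in the levels at a score of 0 was not tested.

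**Figure D3:**
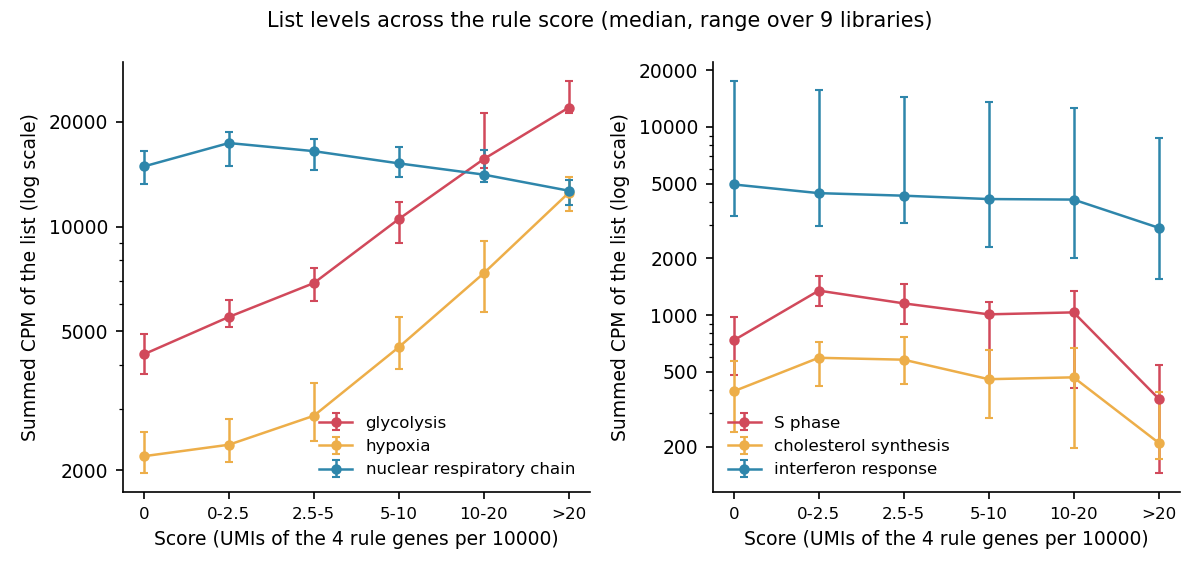
Summed level of gene lists (CPM, median over 9 libraries, with the range as bars) in tumour cells binned by the UMIs of the 4 rule genes per 10000. The glycolysis sum ran from 4300 CPM at a score of 0 to 21945 CPM above 20, and the S phase and interferon-response sums were lowest in the highest bin, at 360 and 2913 CPM.

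The comparison between genotypes asked whether the tumours held different shares of such cells, which the pooled choice of cells does not fix. Hypoxia-high cells made up 17.1%, 25% and 21.2% of tumour cells in the Kmt2c KO libraries (21.1% ± 3.91, SD, n = 3), 11.7%, 13.6% and 8.75% in the Kmt2d KO libraries (11.3% ± 2.44, n = 3) and 5.65%, 7.88% and 9.46% in the WT libraries (7.66% ± 1.91, n = 3). Each Kmt2c KO library lay above all Kmt2d KO and WT libraries, while Kmt2d KO library 3 lay within the range of the WT libraries. The shares differed between the 3 genotypes in an exact test that permuted the 9 libraries between groups and took the Kruskal-Wallis statistic (p = 0.0107, the smallest possible being 0.0036). The difference was 13.4 percentage points for Kmt2c KO against WT (two-sided exact permutation p = 0.1, adjusted over 3 pairs 0.15), 3.68 points for Kmt2d KO against WT (p = 0.2) and -9.76 points for Kmt2d KO against Kmt2c KO (p = 0.1, adjusted 0.15). With 3 libraries a group such a pair cannot go below 0.10, so that no pair could pass 0.05. The difference of Kmt2d KO against WT was 2.54 points without Kmt2d KO library 2 and 4.97 points without Kmt2d KO library 3.

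Depth can move the score of a cell, so each cell was thinned to 2000 UMIs and the top 15% taken again. The shares were then 16.3%, 23.0% and 21.0% in Kmt2c KO, 12.7%, 13.2% and 7.47% in Kmt2d KO and 8.02%, 10.2% and 10.3% in WT libraries, and the exact test across the 3 genotypes gave p = 0.05. Thinning left out 30.9% of the tumour cells of Kmt2d KO library 3 as too shallow and 0.89% to 7.81% elsewhere. Before thinning, the share among the remaining cells was 4.73% in Kmt2d KO library 3, below the 5.77%, 7.73% and 8.88% of the WT libraries. After thinning, the difference of Kmt2d KO against WT was 1.61 points. A score from the other hypoxia genes and the glycolysis genes in place of the 4 gave an exact p = 0.0714 and turned that difference to -1.01 points, while Kmt2c KO was 13.2 points above WT. The mean share was thus highest in Kmt2c KO in both settings, and the order of Kmt2d KO and WT depended on the score. Kmt2c KO hypoxia-high cells also held higher scores than those of Kmt2d KO, since 32.4%, 46.2% and 42.2% of them lay above 20, against 22.0%, 22.2% and 8.70% in Kmt2d KO and 22.0%, 28.5% and 40.4% in WT libraries.

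**Figure D4:**
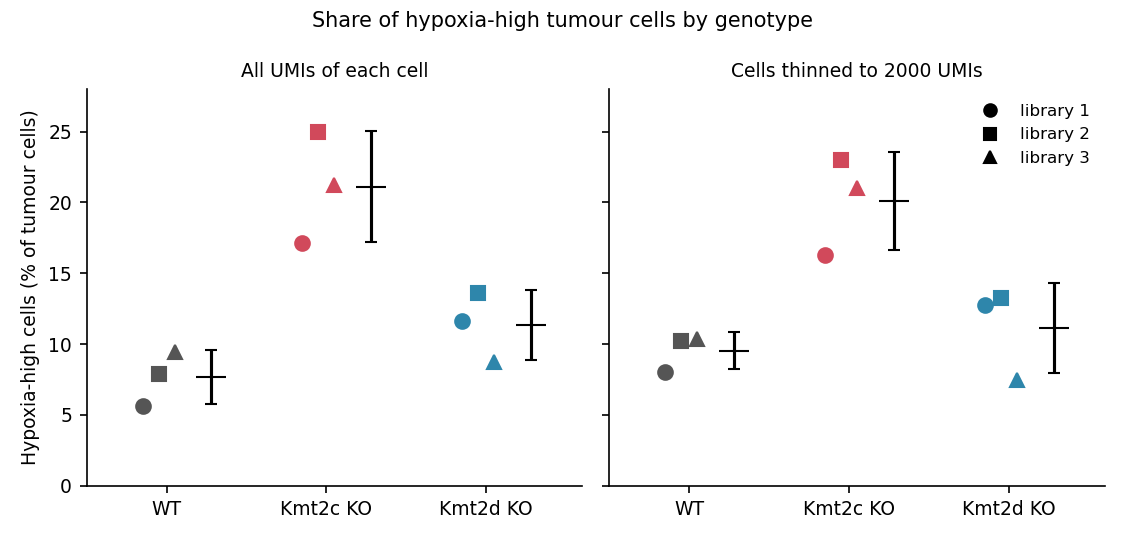
Share of hypoxia-high cells among tumour cells (percent) in each library with all UMIs and after thinning to 2000 UMIs per cell, with bars for the mean ± SD of 3 libraries. The Kmt2c KO libraries, at 17.1% to 25% with all UMIs, lay above the Kmt2d KO and WT libraries in both panels.

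Gene levels within hypoxia-high cells were then compared between genotypes on UMIs summed per library, with edgeR over 11414 genes. Kmt2c KO against WT gave 420 genes at an adjusted p below 0.05, 226 higher (1.98%) and 194 lower (1.70%). Kmt2d KO against WT gave 18 genes (0.158%), 9 higher (0.0789%) and 9 lower (0.0789%), and Kmt2d KO against Kmt2c KO gave 66 genes (0.578%), 20 higher and 46 lower. In other tumour cells the 3 comparisons gave 1764, 248 and 0 of 14469 genes in that order. Of the 420 and 18 genes called against WT in hypoxia-high cells, 350 (83.3%) and 14 (77.8%) were also called there. Most of these calls were thus shared by both cell sets. At an unadjusted p below 0.05, 8.95% of genes were higher and 9.12% lower in Kmt2c KO against WT, 5.65% and 5.34% in Kmt2d KO against WT, and 6.04% and 6.40% in Kmt2d KO against Kmt2c KO. DESeq2 called 2.76% higher and 2.76% lower, 0.386% and 0.587%, and 0.596% and 1.27% in the same order. The comparisons share libraries and are not independent of each other. Counts depended on single libraries. Without Kmt2d KO library 2 they were 727, 45 and 737 for the 3 comparisons in that order, and without Kmt2d KO library 3, whose cells were shallow, 381, 12 and 2. Without WT libraries 1, 2 and 3 in turn, the counts of the 3 comparisons were 217, 3 and 49, then 116, 0 and 24, and then 230, 2 and 33. Without Kmt2c KO libraries 1, 2 and 3 in turn they were 291, 17 and 38, then 230, 4 and 0, and then 246, 3 and 0. Without Kmt2d KO library 1 they were 458, 4 and 12.

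The transcripts of the targeted genes do not check the labels, since guides against exon 1 need not lower them. Kmt2c was at 49.6, 40.8 and 49.7 CPM in Kmt2c KO, 51.8, 54.3 and 53.5 CPM in Kmt2d KO and 76.8, 66.7 and 42.9 CPM in WT hypoxia-high cells. Kmt2d was at 21.7, 19.4 and 23.9 CPM, 22.7, 30.6 and 23.8 CPM, and 31.9, 12.8 and 12.7 CPM in the same order. Neither was called in the comparison of its KO with WT.

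Of the 47 hypoxia genes 38 were tested within hypoxia-high cells, and 1 was called in Kmt2c KO against WT, none in Kmt2d KO against WT and 1 in Kmt2d KO against Kmt2c KO, with median log2 fold changes of 0.21, -0.21 and -0.28. The shares of all genes called were 3.68%, 0.158% and 0.578%, so that the first count was near the background. For Kmt2c KO against WT in other tumour cells, 6 of 41 hypoxia genes were called higher and 3 lower, against 6% and 6.19% of all genes there, and the difference between the cell sets is tested below as an interaction. For Kmt2d KO against Kmt2c KO, edgeR gave 10 lower at an unadjusted p below 0.05 (6.40% of all genes), DESeq2 called 4 lower (1.27%), and the count went from 1 to 8 without Kmt2d KO library 2 and to 0 or 1 without any other library. For Kmt2d KO against WT, edgeR gave 2 genes higher and 6 lower at an unadjusted p below 0.05 (5.65% and 5.34% of all genes), and DESeq2 called 1 lower (0.587%). Hmox1 was the gene higher in Kmt2c KO than in WT, by a log2 of 1.95 ± 0.35 (SE, adjusted p = 0.00885), and all Kmt2c KO libraries lay above all WT libraries. This call was lost without WT library 3 and with H2BMc cells. Higd1a was lower in Kmt2d KO than in Kmt2c KO with a log2 fold change of -0.71 ± 0.14 (adjusted p = 0.0435), at 344, 440 and 359 CPM against 512, 644 and 652 CPM, with WT at 533, 505 and 539 CPM, but was called in 2 of the 9 fits that each left out 1 library. Ldha had a log2 fold change of -0.08 in Kmt2c KO against WT (adjusted p = 0.735), Vegfa 0.24 (adjusted p = 0.739) and Car9 0.72 (adjusted p = 0.214).

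Of the 20 glycolysis genes 16 were tested, and 2 were called in Kmt2c KO against WT, in opposite directions, against 1.98% of all genes called higher and 1.70% lower. Eno1, for enolase, was at 520, 551 and 573 CPM in Kmt2c KO and 461, 261 and 352 CPM in WT hypoxia-high cells (log2 fold change 0.66 ± 0.15, adjusted p = 0.0312). Tpi1, for triose phosphate isomerase, was at 1347, 1457 and 1438 CPM in Kmt2c KO and 2228, 1937 and 1808 CPM in WT (-0.46 ± 0.10, adjusted p = 0.0247). The groups did not overlap in either gene, as in 26.0% of all genes tested in that comparison. Each was called in 4 of the 9 fits that left out 1 library, and each was lost without any 1 of the 3 Kmt2c KO libraries or WT library 2. That of Tpi1 was also lost without WT library 1, with the top 15% within each library, with the top 25% and with H2BMc cells, and that of Eno1 without WT library 3. None of the 16 was called in the comparisons with Kmt2d KO. At an unadjusted p below 0.05, Kmt2d KO gave 7 of the 16 lower and 1 higher than WT and 6 lower than Kmt2c KO, against 5.34%, 5.65% and 6.40% of all genes, and DESeq2 called 4 and 2 of them lower, against 0.587% and 1.27%. The score that chose the cells also differed, with a mean of 40.3%, 17.6% and 30.3% of hypoxia-high cells above 20 in Kmt2c KO, Kmt2d KO and WT libraries. The hypoxia and glycolysis sums rose with that score. Its part in the genotype differences of hypoxia and glycolysis genes was not tested.

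Of the 20 genes of the ATF4 and unfolded protein response list, all tested, 2 were higher in Kmt2c KO than in WT. In that comparison 1.98% of all genes were called higher and 1.70% lower, which is the background of each such count below. Ddit3, a target of ATF4, was at 81.1, 88.0 and 95.1 CPM in Kmt2c KO, 49.5, 48.9 and 34.1 CPM in Kmt2d KO and 24.6, 41.7 and 51.0 CPM in WT hypoxia-high cells. Kmt2c KO against WT gave a log2 fold change of 1.15 ± 0.23 (adjusted p = 0.0124), and Kmt2d KO against Kmt2c KO one of -1.03 ± 0.19 (adjusted p = 0.0321), so that the Kmt2d KO libraries overlapped with WT. The first call was lost without WT library 2, with the top 25% of tumour cells and with H2BMc cells, and the second held in 3 of the 9 fits that left out 1 library and was lost with the top 25% and with only the 2 groups in the fit. The other was the chaperone gene Hsp90b1 (0.80 ± 0.18, adjusted p = 0.0251). Of 42 respiratory chain genes, Ndufa4 was lower in Kmt2c KO than in WT, at 143, 136 and 107 CPM against 243, 228 and 258 CPM (-0.89 ± 0.21, adjusted p = 0.0329). Of the 13 mRNAs of the mitochondrial genome, mt-Nd3 and mt-Atp8 were lower in Kmt2c KO than in WT, and mt-Nd3 remained so in all 9 fits that left out 1 library. The median log2 fold change of the 13 was -0.48, 9 of them were lower at an unadjusted p below 0.05 (9.12% of all genes) and DESeq2 called 5 lower (2.76%). The count of 2 was 6 without Kmt2d KO library 1 or 2 and 1 without Kmt2c KO library 1 or 2 or any WT library. Hsp90b1, Ndufa4 and mt-Atp8 were called in 4, 3 and 4 of those 9 fits, and were lost without WT library 1, 2 or 3. Of the 6 metal and oxidant response genes Txnrd1, for a thioredoxin reductase, was higher in Kmt2c KO (0.74, adjusted p = 0.0455), in 3 of the 9 fits that left out 1 library. None of the 13 TCA cycle, 21 S phase and 11 cholesterol genes was called in Kmt2c KO against WT by edgeR or DESeq2, with 2, 1 and 1 of them at an unadjusted p below 0.05 (8.95% of all genes higher and 9.12% lower). For the 11 cholesterol genes, Kmt2d KO against Kmt2c KO gave 11 higher at an unadjusted p below 0.05 (6.04% of all genes), none called by edgeR and 1 by DESeq2 (0.596%), and Kmt2d KO against WT gave 8 higher (5.65%), none and 2 (0.386%).

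Interferon-response and MHC class I genes were higher in Kmt2c KO. Of 25 interferon-response genes tested, 24 were higher in Kmt2c KO than in WT hypoxia-high cells with a median log2 fold change of 2.88, against 1.98% of all genes tested. Other tumour cells showed the same count, 24 of 25, with a median of 2.71, against 6% of all genes there. In hypoxia-high cells the count was 15, 10 and 17 without WT libraries 1, 2 and 3. With H2BMc cells, a setting that also left out WT library 1, Ifit3, Oasl2, Xaf1, Irf9, Gbp7, Irgm1, Igtp and Iigp1 lost their calls. In Kmt2d KO against WT 1 of 25 was called, with a median of 1.39, while 16 were higher at an unadjusted p below 0.05 (5.65% of all genes) and DESeq2 called 5 higher (0.386%). In Kmt2d KO against Kmt2c KO 11 of 25 were lower, with a median of -1.48. The last count was 25 without Kmt2d KO library 2, 2 without Kmt2d KO library 3, 5 without Kmt2d KO library 1 and 0 without Kmt2c KO library 2 or 3. Without WT library 2 or 3 it was 7, and it was 1 with only the 2 groups in the fit and 1 with the top 25% of tumour cells. The shares of all genes were 0.0789% higher in Kmt2d KO against WT and 0.403% lower in Kmt2d KO against Kmt2c KO. Bst2, which encodes tetherin, was at 1118, 1127 and 957 CPM in Kmt2c KO, 316, 590 and 273 CPM in Kmt2d KO and 136, 150 and 167 CPM in WT hypoxia-high cells. The 3 genotypes did not overlap in Bst2, and its log2 fold change against WT was 2.84 ± 0.26 in Kmt2c KO (adjusted p = 0.000178) and 1.35 in Kmt2d KO (adjusted p = 0.0607), and -1.48 ± 0.23 in Kmt2d KO against Kmt2c KO (adjusted p = 0.0167). Isg15, for a ubiquitin-like protein, was at 515, 541 and 569 CPM in Kmt2c KO and 60.8, 74.7 and 51.0 CPM in WT, and at 96.5, 273 and 94.8 CPM in Kmt2d KO, where library 2 was the high one. Ifi27l2a was the gene called in Kmt2d KO against WT, at 521, 641 and 443 CPM against 190, 274 and 282 CPM (1.07 ± 0.18, adjusted p = 0.0435), and reads of this gene can be shared with near-identical copies.

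All 12 genes of the MHC class I pathway were higher in Kmt2c KO than in WT, with a median log2 fold change of 1.2, against 1.98% of all genes, as were all 12 in other tumour cells, with a median of 1.42. Psmb9, of the immunoproteasome, was at 314, 279 and 244 CPM in Kmt2c KO, 89.2, 195 and 93.0 CPM in Kmt2d KO and 65.2, 57.2 and 49.8 CPM in WT (Kmt2c KO against WT 2.31, adjusted p = 0.00106). The count of 12 went to 8 without WT library 2. With H2BMc cells, a setting that also left out WT library 1, Tap2, Psmb8, Psme1, Psme2 and Nlrc5 lost their calls. None of the 12 was called by edgeR in Kmt2d KO against WT, where 9 were higher at an unadjusted p below 0.05 (5.65% of all genes) and DESeq2 called 2 (0.386%). Of the 12, 1 was called lower in Kmt2d KO against Kmt2c KO (0.403%), with 11 lower at an unadjusted p below 0.05 (6.40%) and 6 called by DESeq2 (1.27%), and the count of 1 went to 11 without Kmt2d KO library 2 and to 0 without any other library. Cd274 had a log2 fold change of 2.41 ± 0.75 in Kmt2c KO against WT that did not pass (adjusted p = 0.109). The 7 macrophage markers summed to 16.4, 28.7 and 28.2 CPM in Kmt2c KO, 13.9, 21.7 and 15.7 CPM in Kmt2d KO and 8.69, 10.1 and 15.1 CPM in WT hypoxia-high cells, and the 5 of them tested had a median log2 fold change of 1.14 in Kmt2c KO against WT. Their part in the interferon and MHC class I results was not tested.

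Of 11 genes of invasion and checkpoints, 3 were higher in Kmt2c KO than in WT and 1 in Kmt2d KO than in WT, against 1.98% and 0.0789% of all genes. Mmp3, which encodes the matrix protease stromelysin-1, was at 258, 513 and 297 CPM in Kmt2c KO, 241, 169 and 160 CPM in Kmt2d KO and 11.6, 55.2 and 40.6 CPM in WT hypoxia-high cells. Each KO library lay above each WT library, and the log2 fold changes were 3.22 ± 0.39 (adjusted p = 0.00106) and 2.26 ± 0.39 (adjusted p = 0.0435). The first call held in all 9 fits that left out 1 library and the second in 3 of them. Between the cell sets Mmp3 had a median log2 ratio of 0.29 of hypoxia-high to other tumour cells, with 1 library of the opposite sign. The collagenase gene Mmp13 was at 9.43, 24.6 and 19.7 CPM in Kmt2c KO and had 1 UMI in all WT hypoxia-high cells, so that the ratio of pooled levels was 57.0 (95% counting interval 10.2 to 2257). Ccl5, a chemokine gene, was at 165, 154 and 77.2 CPM in Kmt2c KO, 41.0, 112 and 13.3 CPM in Kmt2d KO and 8.69, 0 and 0 CPM in WT (Kmt2c KO against WT 6.05 ± 1.09, adjusted p = 0.00901), and this call was lost without WT library 2 or 3, as was that of Mmp13. All UMIs of Ccl5 in WT hypoxia-high cells came from WT library 1, and the fitted log2 fold change was 12.7 without it and 1.51 with the top 25% of tumour cells.

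Among genes without overlap, the 8 largest rises in Kmt2c KO against WT were those of Cfb, Adm2, Cerk, Ccl5, C3, Mmp13, Cxcl10 and Gbp3. The complement gene C3 was at 106, 197 and 137 CPM against 0, 2.69 and 3.48 CPM (6.01 ± 1.13, adjusted p = 0.0107), and Gbp3, an interferon-induced GTPase gene, at 86.4, 79.5 and 93.0 CPM against 5.79, 2.69 and 1.16 CPM (4.87 ± 0.81, adjusted p = 0.00566). WT hypoxia-high cells had no UMI of Cfb, Adm2 and Cerk. With a floor of 3 UMIs over the 3038473 UMIs of the WT group, these were at least 7.87-fold, 4.81-fold and 4.56-fold higher in Kmt2c KO, and each was called (adjusted p = 0.0321, 0.00745 and 0.0106). Each of these 3 calls, and those of C3 and Gbp3, was lost without WT library 2, and those of Cfb and C3 also without WT library 1 or 3. That of Cfb was lost without Kmt2c KO library 2 as well. The call of Cxcl10 was lost without Kmt2c KO library 2 or 3 or any WT library, and its log2 fold change of 5.18 was 2.4 with the top 25% of tumour cells. Slpi, for a secreted protease inhibitor, was at 599, 1604 and 1609 CPM in Kmt2c KO, 532, 1202 and 253 CPM in Kmt2d KO and 23.2, 74.1 and 55.6 CPM in WT, with log2 fold changes of 4.58 ± 0.60 (adjusted p = 0.00145) and 3.59 ± 0.59 (adjusted p = 0.0435).

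On the lower side several genes were close to absent from Kmt2c KO hypoxia-high cells. The gene model 3830417A13Rik had no UMI in the 6 KO libraries and was at 5.79, 15.5 and 19.7 CPM in WT, which made it at least 160-fold lower in Kmt2c KO and at least 69.2-fold lower in Kmt2d KO. Rims1, which encodes a synaptic scaffold, had 1 UMI in the Kmt2c KO libraries together and was at 13.0, 13.5 and 20.9 CPM in WT, a ratio of WT to Kmt2c KO of 512 (95% counting interval 87.5 to 20634.5). Ppfia2, for a liprin, was lower by a log2 of -6.15 ± 0.85 (adjusted p = 0.00192) and Mrgprx2, for a receptor, by -5.51 ± 0.83 (adjusted p = 0.00317). Rims1 and Ppfia2 were at 0.197 and 0.789 CPM in Kmt2d KO library 2 and at 4.91 and 4.17 CPM in Kmt2d KO library 3. Plpp6, with no UMI in Kmt2c KO, was at least 47.2-fold lower, and Gm364, Klc3 and 5330434G04Rik were lower by -5.84, -4.89 and -3.90 on the log2 scale. Of these lower genes 3830417A13Rik, Rims1, Ppfia2 and Mrgprx2 kept their calls in all 9 fits that left out 1 library. Gm364 and 5330434G04Rik lost theirs without WT library 2, Plpp6 without Kmt2c KO library 2 or any WT library, and Klc3 without any Kmt2c KO or WT library. Of 12 matrix list genes tested, 2 were called lower and 0 higher, against 1.70% and 1.98% of all genes. Col3a1 was lower at 20.5, 10.3 and 8.40 CPM against 155, 220 and 170 CPM (-3.81 ± 0.50, adjusted p = 0.00145), and Col5a2 by -2.82. At an unadjusted p below 0.05, 2 of the 12 were higher and 5 lower (8.95% and 9.12% of all genes). DESeq2 called 2 higher and 3 lower (2.76% of all genes each way). The 6 fibroblast and mural markers summed to 240, 329 and 247 CPM in Kmt2c KO, 465, 199 and 426 CPM in Kmt2d KO and 356, 554 and 308 CPM in WT hypoxia-high cells, and the 5 of them tested had a median log2 fold change of -0.60 in Kmt2c KO against WT, 1 of them above 0. Their part in the collagen values was not tested.

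In Kmt2d KO against WT, Ptar1, which encodes a prenyltransferase subunit repeat protein, had the smallest adjusted p. It was at 10.2, 14 and 13.7 CPM in Kmt2d KO and 69.5, 54.5 and 37.1 CPM in WT hypoxia-high cells (-2.09 ± 0.20, adjusted p = 0.00147). Kmt2c KO hypoxia-high cells held 12.2, 11.6 and 13.3 CPM of Ptar1, within the range of Kmt2d KO. Ogn, the proteoglycan osteoglycin, was at 8.28, 7.10 and 18.7 CPM against 59.4, 69.4 and 96.2 CPM (-2.79 ± 0.35, adjusted p = 0.0116). Hs3st5, a heparan sulfate sulfotransferase gene, was higher at 12.5, 13.6 and 19.1 CPM against 4.35, 2.02 and 0 CPM (2.88 ± 0.47, adjusted p = 0.0435). The histone gene Hist1h2ap (2.89 ± 0.49) and the MHC gene H2-Q1 (1.26 ± 0.22) were also higher, and both belong to families of near-identical copies. Gm11361 and Oaf were higher by 2.01 and 0.85, and Ccn3, Brinp3, Arhgap24, Ccdc90b and Mical2 lower by -2.54, -1.72, -1.07, -0.97 and -0.93 on the log2 scale. None of the 16 genes named in this comparison kept its call in all 9 fits that each left out 1 library, and they were called in 1 to 8 of them. Ptar1 lost its call only without WT library 2.

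Also in Kmt2d KO against Kmt2c KO no named gene kept its call in all 9 such fits, and the genes were called in 1 to 6 of them. No gene was called in this comparison in other tumour cells, and the interaction, tested below, called Rsad2 and Ifit1 only. The calls of the other genes are therefore shown neither as shared by both cell sets nor as particular to hypoxia-high cells. Of the 8 largest falls, 3 were genes of the interferon list, Rsad2, Ifit1 and Ifit3. The largest rise was that of Thsd4, a matrix protein gene at 42.2, 10.5 and 52.0 CPM against 2.69, 2.45 and 5.67 CPM (3.25 ± 0.48, adjusted p = 0.0145). Rsad2, for the antiviral enzyme viperin, was at 0.578, 6.31 and 1.23 CPM in Kmt2d KO and 21.3, 28.9 and 29.1 CPM in Kmt2c KO (-3.29 ± 0.47, adjusted p = 0.014). Nos2, the inducible nitric oxide synthase gene, was at 11.2, 18.4 and 3.93 CPM against 33.1, 63.0 and 60.1 CPM (-2.24 ± 0.37, adjusted p = 0.0206). Cavin2, a coat protein of caveolae, was at 11.9, 15 and 19.6 CPM against 4.77, 4.46 and 2.52 CPM (1.91 ± 0.26, adjusted p = 0.014), with WT above both at 37.7, 29.6 and 46.4 CPM. Fam180a, Sgcd, Fam129a, Mylk, Cfap299 and Npepl1 were higher by 3.05, 2.04, 1.74, 1.35, 1.35 and 1.33, and Spats2l, A530040E14Rik, Ifit1, Slfn2, Ifit3 and Mmp13 lower by -2.42, -2.22, -2.21, -2.21, -2.18 and -2.12 on the log2 scale. Interferon genes of Kmt2d KO library 2 lay towards Kmt2c KO, with a list sum of 6144 CPM in hypoxia-high cells against 3914 and 2996 CPM in Kmt2d KO libraries 1 and 3 and 9813 to 10179 CPM in Kmt2c KO.

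Whether a genotype effect differed between hypoxia-high and other tumour cells was tested as an interaction in 1 fit of both cell sets over 12900 genes, with the library as a block. It gave 4 genes in Kmt2c KO against WT (0.0310%), 2 in Kmt2d KO against WT (0.0155%) and 2 in Kmt2d KO against Kmt2c KO (0.0155%), and 1028, 865 and 946 genes at an unadjusted p below 0.05. No hypoxia, glycolysis, respiratory chain, S phase or MHC class I gene of the lists was among the called genes. Hypoxia list genes were, however, among the 8 interactions of smallest p each way. In Kmt2d KO against Kmt2c KO these were Gbe1 (-0.69 ± 0.12, adjusted p = 0.0509), Egln1 (-0.46, 0.0995) and Hmox1 (0.86, 0.219). In Kmt2d KO against WT they were Hmox1 (1.55, adjusted p = 0.147) and Egln1 (-0.51, 0.233). In Kmt2c KO against WT it was Pdk1 (-1.16, adjusted p = 0.246). In simulated data, where every gene had the same dispersion, the interaction test recovered 73% of planted 4-fold and 8% of planted 2-fold changes. Smaller differences could therefore be missed. Cxcl10 showed the largest difference in Kmt2c KO against WT. It was at 62.3, 97.1 and 90.6 CPM in Kmt2c KO and 5.79, 1.35 and 1.16 CPM in WT hypoxia-high cells, and at 79.2, 149 and 186 CPM and 20.6, 11 and 109 CPM in the other tumour cells. The WT hypoxia-high values rested on 4, 2 and 1 UMIs. The WT libraries thus differed more between the cell sets than the Kmt2c KO libraries, by a difference in log2 fold change of 3.48 ± 0.52 (adjusted p = 0.0205). For Rsad2 and Ifit1 the effect of Kmt2d KO against Kmt2c KO was more negative in hypoxia-high cells, by -1.64 ± 0.24 and -1.06 ± 0.16 (adjusted p = 0.0211 for each). Of the 8 calls, 7 were lost with the top 25% of tumour cells and all 8 with H2BMc cells, a setting that also left out WT library 1.

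**Figure D5:**
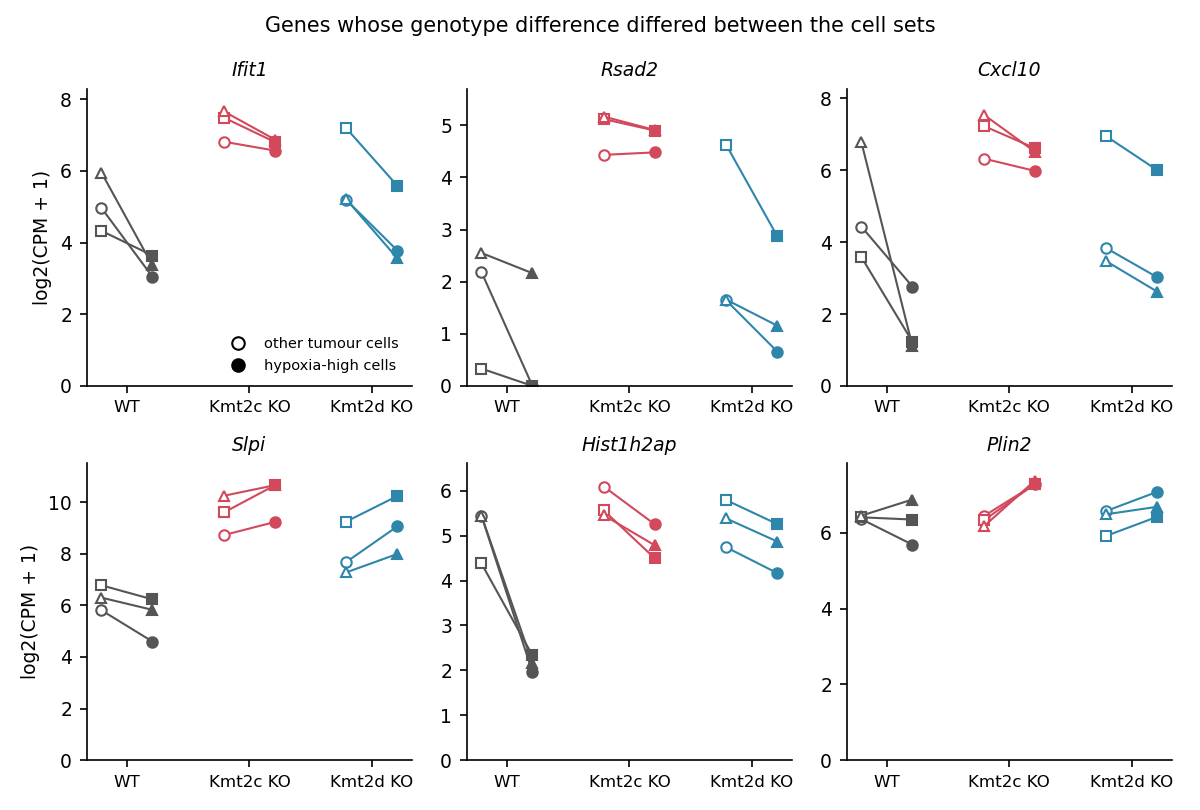
Levels, as log2(CPM + 1), of the 6 genes with a called interaction in other tumour cells (open points) and hypoxia-high cells (filled points), 1 point per library joined by a line, by genotype. In CPM, Cxcl10 was between 1.16 and 5.79 CPM in WT and between 62.3 and 97.1 CPM in Kmt2c KO hypoxia-high cells.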

How the data were processed

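The deposited file held UMI counts of 32286 features in 89147 barcodes, which the authors made with Cell Ranger and aggregated without further scaling. The submitters' processing notes name Cell Ranger 7.0.1 and mm10. A library was read from the suffix of each barcode, and its genotype from a letter in the aggregation table. No label explains the letters, and C was taken to mean Kmt2c KO, D Kmt2d KO and X WT, after the names the study gives its comparisons. The libraries held 21529691 to 125617312 UMIs. Intervals and floors cover counting error only. The members and the gene lists were chosen with earlier results of these data known, so a pattern in them is no independent evidence.

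Cells were filtered as in the report, with no doublet caller, so doublets under 7500 genes remain. UMIs were summed per library over hypoxia-high and over other tumour cells with Python 3.11.15 (pandas 2.3.3, numpy 2.4.6, scipy 1.17.1). Genotypes were compared with edgeR 4.0.16 in R 4.3.3 (filterByExpr, TMM, quasi-likelihood test over 9 libraries, Benjamini-Hochberg over all genes tested, called below 0.05), and state by genotype with a library block on 18 sums. DESeq2 1.42.0 was an alternative. Both tests were tested on simulated data with changes planted in Kmt2c KO. The test within hypoxia-high cells recovered 92% of 4-fold and 27.6% of 2-fold changes, and the interaction test 73% and 8%. The simulation gave every gene the same dispersion, held no outlying library and drew the 2 cell sets of a library independently. In the measured data counts of calls moved with single libraries, so the recovered shares can be too high. A missing call therefore does not show that a change was absent. Shares were compared by exact permutation over libraries. Hypoxia-high against other tumour cells was described, without a test, as the log2 ratio of CPM + 1.

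Genes were named as the 4 rule genes, the list members, the 15 largest rises and falls between cell sets among genes of at least 50 CPM with 1 sign in every library, the 8 largest called rises and falls without overlap in each comparison of genotypes, and the 8 interactions of smallest p each way. Slpi and Ifit1 fall under more than 1 of these. Alternatives changed the tool, scaling, filter, pseudocount, choice of cells, and left out each library in turn. Promoter windows were RefSeq sequences of GRCm38.p6, the assembly that mm10 denotes.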

Additional observations from a re-analysis of the deposited data

Results flagged for a closer look

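The effect of genotype differed between hypoxia-high and other tumour cells in 8 tests of the difference itself, in 6 genes, by edgeR's interaction test with the library as a block and an adjusted p below 0.05 over 12900 genes.

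In Kmt2c KO against WT, the log2 fold change in hypoxia-high cells exceeded that in other tumour cells by 3.48 ± 0.52 (SE) for Cxcl10, 2.28 ± 0.35 for Hist1h2ap, 1.35 ± 0.23 for Slpi and 1.08 ± 0.18 for Plin2, which encodes a coat protein of lipid droplets. Plin2 was at 155, 156 and 166 CPM in hypoxia-high cells of Kmt2c KO and 86.2, 79.7 and 71.2 CPM in its other tumour cells, while WT held 50.7, 80.8 and 117 CPM and 81.4, 84.2 and 86.9 CPM. Plin2 was thus higher in hypoxia-high cells in 3 of 3 Kmt2c KO libraries and in 1 of 3 WT libraries. Slpi in WT was at 23.2, 74.1 and 55.6 CPM in hypoxia-high and 55.0, 108 and 77.6 CPM in other tumour cells, and in Kmt2c KO at 599, 1604 and 1609 CPM and 421, 774 and 1212 CPM. Slpi was thus higher in hypoxia-high than in other tumour cells in 3 of 3 Kmt2c KO libraries and lower in 3 of 3 WT libraries.

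In Kmt2d KO against WT the difference was 2.59 ± 0.34 for Hist1h2ap and 1.69 ± 0.23 for Slpi. Hist1h2ap, a replication-dependent histone gene with near-identical copies, was at 17.0, 37.3 and 28.2 CPM in Kmt2d KO and 2.9, 4.04 and 3.48 CPM in WT hypoxia-high cells, against 25.7, 54.4 and 40.7 CPM and 42.6, 19.8 and 42.7 CPM in other tumour cells. The WT hypoxia-high values rested on 2, 6 and 3 UMIs. Slpi in Kmt2d KO was at 532, 1202 and 253 CPM in hypoxia-high and 204, 606 and 154 CPM in other tumour cells.

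In Kmt2d KO against Kmt2c KO the difference was -1.64 ± 0.24 for Rsad2 and -1.06 ± 0.16 for Ifit1. Rsad2 was at 0.578, 6.31 and 1.23 CPM in Kmt2d KO hypoxia-high cells and 2.12, 23.6 and 2.15 CPM in the other tumour cells, while Kmt2c KO held 21.3, 28.9 and 29.1 CPM and 20.6, 33.8 and 34.9 CPM. Each of these 8 differences was lost with cells chosen by an H2BMc UMI, which also left out WT library 1, 7 of them, all but that of Plin2, with the top 25% of tumour cells, and 6, all but those of Plin2 and Rsad2, with the top 15% within each library. With the top 25% that of Cxcl10 was 0.77. That of Slpi was 0.16 in Kmt2c KO with the top 15% within each library and 0.22 in Kmt2d KO with H2BMc cells. With DESeq2 those of Cxcl10, Rsad2 and Ifit1 were lost, and with relative log expression scaling those of Slpi in Kmt2c KO and of Plin2. Each of the 8 was called in 10 to 13 of the 17 alternatives. In the fits that left out 1 library, that of Cxcl10 was lost without WT library 3, those of Hist1h2ap without WT library 3 and, in Kmt2c KO, WT library 1, and those of Slpi without WT library 2 or 3 and, in Kmt2c KO, WT library 1. That of Plin2 was lost without Kmt2c KO library 2 or 3 or WT library 1 or 2. Those of Rsad2 and Ifit1 were lost without Kmt2d KO library 2, and that of Ifit1 also without Kmt2d KO library 3. The sums of hypoxia-high cells in WT came from 41, 130 and 47 cells, and the part of this small number in the differences was not tested.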

How the results depend on the processing

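Shares kept their direction except that a score from the other hypoxia genes and the glycolysis genes turned Kmt2d KO against WT from 3.68 to -1.01 percentage points. That difference was 1.07 points with the top 10%, 5.94 with the top 25%, 1.61 with thinned cells, 1.55 with H2BMc cells and 2.16 with cells of at least 2000 UMIs. The exact test across genotypes no longer passed 0.05 with cells thinned to 2000 UMIs (0.05), with the other score (0.0714), with H2BMc cells (0.05) and with cells of at least 2000 UMIs (0.05). It gave 0.0107 to 0.0321 when libraries were left out in turn.

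Counts of calls moved with the processing, and the cause was not tested. Within hypoxia-high cells, the numbers for Kmt2c KO against WT, Kmt2d KO against WT and Kmt2d KO against Kmt2c KO were 420, 18 and 66. They became 930, 407 and 641 with no filter on low counts, which tests more genes, 649, 7 and 1 with only the 2 groups in the fit, 1283, 32 and 306 with the top 15% taken within each library, 773, 37 and 4 with the top 25%, and 142, 2 and 126 with H2BMc cells, where WT library 1 had too few cells (16) and was left out. DESeq2 gave 111 and 213 for the comparisons with Kmt2d KO, and cells of at least 2000 UMIs 11 for Kmt2d KO against WT. Leaving out 1 library gave 116 to 727, 0 to 45 and 0 to 737. For the interaction the numbers 4, 2 and 2 became 13, 4 and 5 with DESeq2, 109, 61 and 134 with no filter, 9, 4 and 20 with only the 2 groups, 167, 0 and 376 with the top 15% within each library, and 8, 0 and 32 with the top 25%. Relative log expression scaling gave 2 and 5 for Kmt2c KO against WT and Kmt2d KO against Kmt2c KO, H2BMc cells 1 and cells of at least 2000 UMIs 7 for the latter. Leaving out 1 library gave 1 to 13, 0 to 5 and 1 to 14.

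Among list medians between cell sets, the rule genes became 4.93 and glycolysis 1.67 against other tumour cells at or below the median score, glycolysis 1.28 with the top 15% within each library, and the TCA cycle -0.10 and the respiratory chain -0.12 with TMM scaling. Between genotypes no paired analysis was possible because the library numbers in the file are not tied to the replicate numbers in the labels, while the 2 cell sets were compared within each library. The interaction of Gm20628 in Kmt2d KO against Kmt2c KO turned from 1.11 to -0.56 with H2BMc cells. WT libraries held 41, 130 and 47 hypoxia-high cells, and the part of these numbers in the counts was not tested.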
